A study of Ambystoma mexicanum with 8 samples.

Results

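MicroRNAs (miRNAs) of the regenerating axolotl forelimb were compared between 6 days post-amputation (dpa), when the blastema forms, and 3 dpa, when the stump is an early wound. The comparison uses 2 of the 8 libraries of the series and all 143 miRNAs that were counted in them. No miRNA was left out for low reads, and 141 had at least 1 read at 6 dpa, against 140 at 3 dpa. Forelimbs of *Ambystoma mexicanum* were amputated at the mid-zeugopod, through the middle of the lower arm, under MS222 anaesthesia. The 6 dpa library and the 3 dpa library are each 1 pool of at least 4 regenerating tissues, and small RNA libraries of the uninjured limb at 0 dpa and of the limb at 14 dpa were scaled with them. The animals came from the Ambystoma Genetic Stock Center; their age and sex are not given in the sources used here, and no treatment beside the amputation and the anaesthetic is named in them. A pool evens out differences between animals but gives no measure of them, so no test was possible and no p-value is reported.

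The miRNA reads came to 1262929 at 6 dpa and 901281 at 3 dpa, and to 1297551 at 0 dpa and 1918841 at 14 dpa. Levels are given as reads, or as scaled cpm, which are reads per 1000000 after trimmed mean of M values (TMM) scaling of the 4 libraries together. Under this scaling 3 reads, taken as the limit of detection, are 2.82 cpm at 6 dpa and 3.11 cpm at 3 dpa. A change is the log2 fold change of 6 dpa over 3 dpa, and a change past 0.58 in either direction, 1.49-fold, is called higher or lower. The intervals beside a change are exact 95% Clopper-Pearson intervals of the reads of that miRNA in the 2 libraries. They cover counting error alone, since PCR copies are not independent molecules and differences between limbs are not in them. The scaling is taken as fixed in them, so they also leave out the error from the choice of scaling. For miR-203a-3p, with an interval of 3.65 to 3.71, other scalings gave changes from 3.20 to 3.88. Each value was read as the number of reads of 1 exact sequence tag, without other end variants of the same miRNA, which holds for all of the 68 tags that could be checked. In tissue libraries such as these, fewer cells of a type and less RNA per cell cannot be told apart.

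A mature miRNA is a strand of about the length of the tags shown here, which guides an Argonaute protein to messenger RNAs. The seed, bases 2 to 8 from the 5′ end, does most of the pairing with the target and defines families of miRNAs that can bind overlapping targets. Many miRNAs are made mainly in 1 tissue, such as miR-1 and miR-133 in muscle or miR-203 in the epidermis, so the miRNAs of a stump carry information on the tissues in it. During limb regeneration the epidermis closes over the wound, the damaged muscle and skeleton at the cut are broken down, and progenitor cells then gather under the thickened epidermis as the blastema.

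Tags of some miRNAs with large increases are shown, with the seed in capitals, chosen because many of them belong to families known from epithelia. The share of such families among these tags is therefore no result. miR-203b-3p is included on 4 reads at 3 dpa. Not shown are, among others, miR-30a-3p, miR-193b-3p, miR-183-5p and, on 4 reads at 3 dpa, miR-203c, which had larger increases than miR-27a-5p. The tags are DNA letters of the sequenced reads, 5′ to 3′, and carry the study's names without the species prefix.
miR-203a-3p: gTGAAATGtttaggaccacttg
miR-203b-3p: gAAATGTTtaggaccacttg
miR-375-1-3p: tTTGTTCGttcggctcgcgtta
let-7b-1-5p: tGAGGTAGtaggttgtgtgg
miR-181a-1-5p: aACATTCAacgctgtcggtgagt
miR-25-3p: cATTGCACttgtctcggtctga
miR-31-5p: aGGCAAGAtgttggcatagctga
miR-200c-3p: tAATACTGcctggtaatgatga
miR-200a-3p: tAACACTGtctggtaacgatgt
miR-27a-5p: aGGACTTAgctcactttgtgaac

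Tags of some miRNAs with decreases, many of them large or with high reads at 3 dpa, are shown next, with the same capitals. They were not chosen by size alone, so the share of any tissue or family among them is no result. Not shown are, among others, miR-281, miR-2184-1-5p, let-7i-3p, miR-2188-5p, miR-217-5p, miR-18b-5p and miR-99-1-5p, which had larger decreases than miR-133a-1-3p. Here miRNAs known from muscle, cartilage and nerve stand beside members of the let-7, miR-29 and miR-34 families.
miR-34c-5p: aGGCAGTGtagttagctgattg
miR-29b-1-3p: tAGCACCAtatgaaatcagtgt
miR-128-1-3p: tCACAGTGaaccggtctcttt
miR-218a-1-5p: tTGTGCTTgatctaaccatgtg
miR-1a-3p: tGGAATGTaaagaagtatgtac
miR-140-3p: tACCACAGggtagaaccacgga
miR-133a-1-3p: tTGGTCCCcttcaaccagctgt
miR-130c-1-3p: cAGTGCAAtaatgaaagggcgt
let-7j-5p: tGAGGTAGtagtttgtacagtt
miR-328-5p: gGGGGGCAggtggctctccg

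The shared seed is visible in these relatives, which are shown because members with 1 seed differed in direction or size.
let-7f-5p: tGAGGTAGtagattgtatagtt
miR-92a-1-3p: tATTGCACttgtcccggcctgt
miR-363-3p: aATTGCACggtatccatctgta
miR-34a-5p: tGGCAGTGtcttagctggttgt
miR-1b: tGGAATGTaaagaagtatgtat
miR-222a-3p: aGCTACATctggctactgggtct
miR-222b-3p: aGCTACATctggctactggg
miR-19b-3p: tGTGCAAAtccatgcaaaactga
miR-19c-3p: tGTGCAAAtccatgcaaaact

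Between 3 and 6 dpa the miRNAs of the limb shifted in both directions. Of the 143 miRNAs, 43 were higher at 6 dpa (30.1%) and 56 were lower (39.2%), and 44 lay within the cut-off. The whole counting interval lay above the cut-off for 27 miRNAs (18.9%) and below its negative for 43 (30.1%). The median log2 fold change over all miRNAs was -0.13, and the middle 50% of them lay between -1.06 and 0.71. Past 4-fold by their fitted values, 12 miRNAs were higher and 11 were lower. Among the 12 were miR-152-3p and miR-146b-5p, each with 1 read at 6 dpa and 0 at 3 dpa. Also among them was miR-2954-3p, with 5 reads at 6 dpa and 0 at 3 dpa. Among the 11 was miR-135-5p, with 0 reads at 6 dpa and 4 at 3 dpa. With 0 reads set to the limit of 3, miR-2954-3p was 1.51-fold higher and miR-135-5p 1.47-fold lower. At or under 3 reads in both libraries were 5 miRNAs (miR-152-3p, miR-146b-5p, miR-194a-5p, miR-124-4-3p and let-7h-5p), for which no fold change is given. Their fitted values still enter the counts over all miRNAs and seeds and the counts and medians of the lists that hold them. Without these 5 miRNAs 41 of 138 were higher and 55 were lower. Among the miRNAs known from muscle, cartilage, epidermis, vessels and blood cells, miR-146b-5p alone had no read at 1 of the 2 stages. The balance of these counts rests on the scaling: with total miRNA reads in place of TMM the same data gave 31 higher and 68 lower, and with the upper quartile 26 higher and 72 lower, because these scalings moved the median of all miRNAs by -0.33 and -0.46. With the median of ratios it moved by 0.18 and with the 3 dpa library as TMM reference by 0.20, and each of these gave 49 higher and 47 lower. Of the 122 miRNAs covered by the lists or by the rule for named miRNAs, 88 were past the cut-off, and 65 of these stayed past it under each of the 9 alternatives of scaling, prior count and filter in which they had a value. The other 23 did not. Each is marked as sensitive to scaling, or with the alternative that moved it, where its log2 fold change is given. The 88 and the 65 include miR-152-3p, miR-146b-5p and miR-124-4-3p, which had 3 reads or fewer in both libraries. In the other direction, 16 miRNAs within the cut-off passed it under at least 1 alternative. These were miR-30e-2-5p, miR-93-5p, miR-96-5p and miR-196a-1-5p on the higher side, and let-7a-1-5p, let-7g-1-5p, miR-206, miR-184-1-3p, miR-223-3p, miR-155-5p, miR-126a-5p, miR-17a-1-5p, miR-20b-5p, miR-30b-5p, miR-125b-1-5p and miR-338-1-3p on the lower side.

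**Figure D1:**
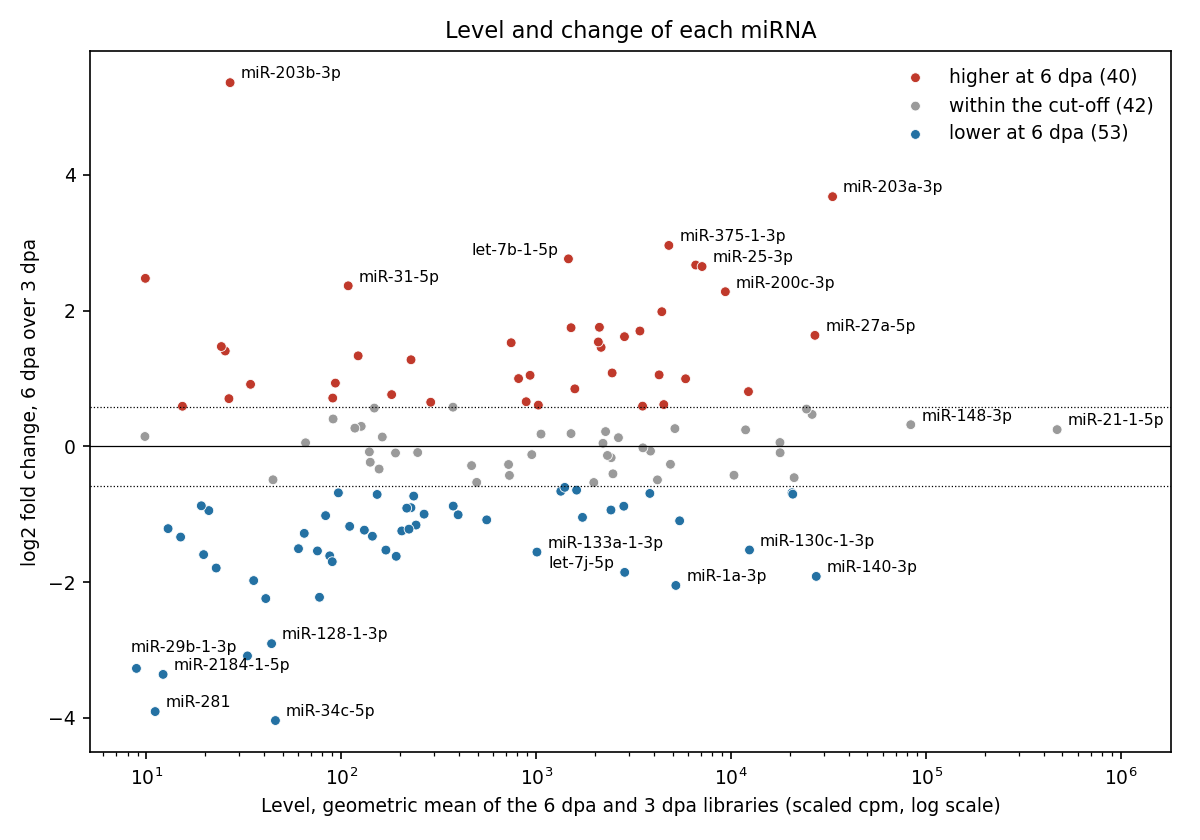
The vertical axis is the log2 fold change of 6 dpa over 3 dpa and the horizontal axis the geometric mean of the levels in the 2 libraries in scaled cpm, for the 135 miRNAs that were read at both stages and have more than 3 reads in at least 1; dotted lines mark the cut-off. Among these, 40 miRNAs were higher and 53 lower, the abundant miR-21-1-5p lay within the cut-off at 0.25, and the changes past -2.5 were all of miRNAs with a level under 100 cpm.

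The most abundant miRNAs changed order. miR-21-1-5p, which in mammals represses the tumor suppressor PDCD4 and is a common miRNA of wounds, led both libraries with 544381 reads at 6 dpa and 415620 at 3 dpa. It held 43.1% of the miRNA reads at 6 dpa (43.0% to 43.2%) and 46.1% at 3 dpa (46.0% to 46.2%), and its scaled level differed by only 0.25 on the log2 scale. The second place at 6 dpa went to miR-203a-3p, with 9.98% of the reads (9.93% to 10.03%), against 0.990% at 3 dpa (0.969% to 1.01%), where it was in place 17. At 3 dpa miR-148-3p stood second with 7.98% of the reads, and at 6 dpa it held 7.85% and was in place 3. The cartilage miRNA miR-140-3p held 1.18% of the reads at 6 dpa (1.17% to 1.20%) and was in place 16, against 5.67% (5.62% to 5.72%) and place 3 at 3 dpa. The 10 most abundant miRNAs made up 76.2% of the reads at 6 dpa and 76.7% at 3 dpa, so the reads were about as concentrated in a few miRNAs at both stages while the miRNAs behind miR-21 changed. Of the 10 most abundant at 6 dpa, miR-27a-5p held 3.99% of the reads, against 1.63% at 3 dpa, miR-200c-3p 1.73%, against 0.453% at 3 dpa, and miR-25-3p 1.50%, against 0.303% at 3 dpa. Of the 10 most abundant at 3 dpa, let-7f-5p held 1.37% at 6 dpa, against 2.82% at 3 dpa, miR-143-1-3p 1.36%, against 2.78% at 3 dpa, and miR-130c-1-3p 0.616%, against 2.25% at 3 dpa. The others of the leading miRNAs lay within the cut-off under TMM scaling, 3 of them (miR-30e-2-5p, miR-93-5p and let-7a-1-5p) not under every alternative. They were miR-30e-2-5p at 0.47 (up to 0.67 under the alternatives), miR-93-5p at 0.55 (up to 0.75), miR-101b-3p at 0.06, let-7a-1-5p at -0.46 (down to -0.94) and miR-1b at -0.10. Of the leading miRNAs past the cut-off, let-7f-5p and miR-143-1-3p were sensitive to scaling.

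**Figure D2:**
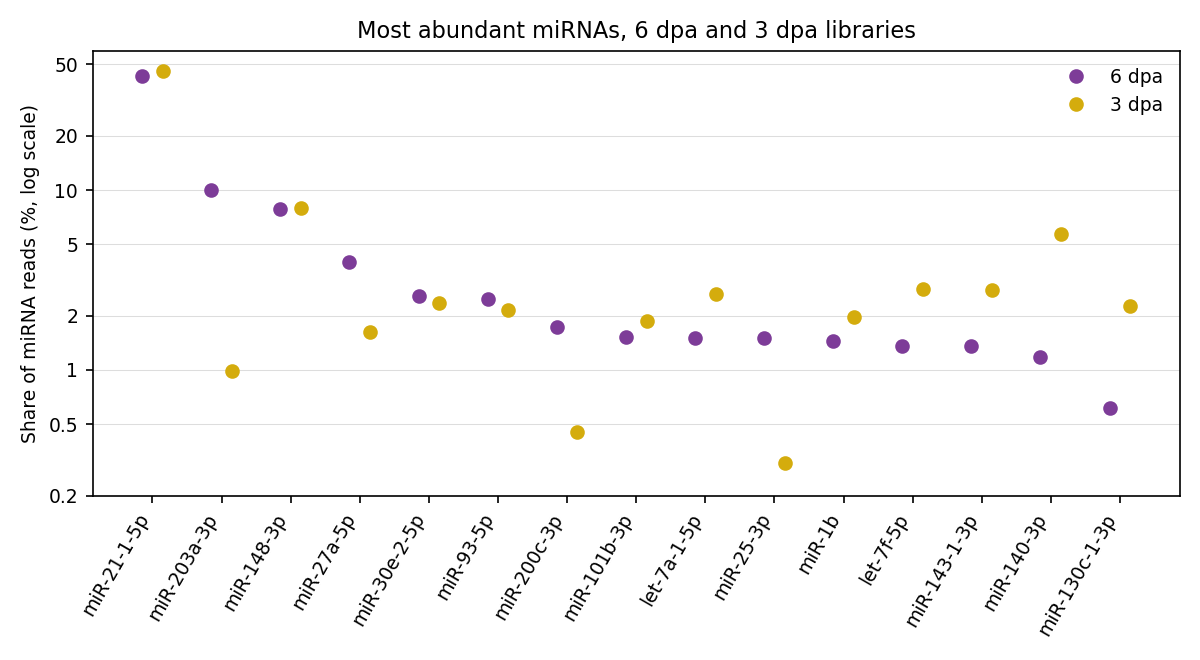
Points give the share of all miRNA reads in percent, on a log axis, of the 15 miRNAs among the 10 most abundant at 6 dpa or at 3 dpa, with 6 dpa left of 3 dpa; the exact 95% intervals are narrower than the points. miR-21-1-5p was at 43.1% at 6 dpa and 46.1% at 3 dpa, miR-203a-3p at 9.98% at 6 dpa and 0.990% at 3 dpa, and miR-140-3p at 1.18% at 6 dpa and 5.67% at 3 dpa.

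Epithelial miRNAs had the largest increase and 4 of the 12 largest among miRNAs with at least 10 reads at each stage. The list of epidermal and epithelial miRNAs had 9 of 11 members higher, 1 lower and 1 within the cut-off, with a median of 1.98, against 30.1% higher and a median of -0.13 over all miRNAs. The whole interval lay above the cut-off for 7 of the 11, against 18.9% over all. Both counts include miR-203b-3p and miR-203c, each with 4 reads at 3 dpa, which may not be independent of miR-203a-3p. The members of the list together made up 13.3% of the reads at 6 dpa and 2.93% at 3 dpa. The median of this list lay between 1.31 and 2.18 under the alternatives. miR-203, which in mouse skin limits the proliferation of keratinocytes and represses p63, gave most of this. Its main tag miR-203a-3p had 126034 reads at 6 dpa and 8919 at 3 dpa, with a log2 fold change of 3.68 (3.65 to 3.71), or 12.8-fold. Over 0, 3, 6 and 14 dpa its scaled level was 5650, 9256, 118435 and 110572 cpm. Under TMM scaling it was thus already above the uninjured limb at 3 dpa and stayed near its 6 dpa level at 14 dpa.

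The miR-203b-3p tag is the miR-203a-3p tag without its 2 first bases at the 5′ end, and its seed is therefore a different run of bases. It had 185 reads at 6 dpa and 4 at 3 dpa, with a change of 5.36 (4.01 to 7.28). It made up 0.147% of the reads of both tags at 6 dpa and 0.0448% at 3 dpa. The miR-203c tag differs from miR-203a-3p by A6C, where positions are counted from 1 at the 5′ end and the base of miR-203a-3p comes before the number. With 25 reads at 6 dpa and 4 at 3 dpa it stood at 2.47 (0.97 to 4.48), and its reads were 0.0198% of those of miR-203a-3p at 6 dpa and 0.0448% at 3 dpa. Both minor tags moved with miR-203a-3p, and whether their reads come from it by trimming or by base errors was not tested.

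The miR-200 family, which in mammals keeps cells epithelial by repressing ZEB1 and ZEB2, was higher as well. miR-200c-3p had 21860 reads at 6 dpa and 4083 at 3 dpa, with a change of 2.28 (2.23 to 2.33). For miR-200a-3p the reads were 9321 at 6 dpa and 2135 at 3 dpa, which is a change of 1.98 (1.91 to 2.05). miR-429a-3p, which shares its seed with miR-200c-3p, had 3791 reads at 6 dpa and 1623 at 3 dpa and stood at 1.08 (0.996 to 1.17). The tag named miR-200b, from the opposite strand and with another seed, had 123 reads at 6 dpa and 68 at 3 dpa. It stood at 0.71 (0.27 to 1.16), and this call was sensitive to scaling. All these tags were thus above the cut-off under TMM scaling, the abundant ones by the most, but miR-200b was not above it under every alternative.

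miR-31-5p, a miRNA of wound keratinocytes in mammals, had 262 reads at 6 dpa and 46 at 3 dpa, with a change of 2.36 (1.91 to 2.85). Of the last 3 members of the epithelial list, 1 was lower, 1 was higher and 1 lay within the cut-off. miR-205-5p, an epithelial miRNA of skin and its appendages, was lower, with 3200 reads at 6 dpa and 4687 at 3 dpa, or -0.69 (-0.76 to -0.63), a call sensitive to scaling. Its opposite strand miR-205a-3p had 44 reads at 6 dpa and 15 at 3 dpa and stood at 1.40 (0.54 to 2.36). miR-184-1-3p, known from the cornea and epidermis, had 3751 reads at 6 dpa and 4784 at 3 dpa, or -0.49 (-0.56 to -0.43). Epithelial miRNAs were thus not all higher, and miR-205-5p stood at 3007 cpm at 6 dpa and 4864 cpm at 3 dpa, while miR-203a-3p stood at 118435 cpm at 6 dpa and 9256 cpm at 3 dpa.

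miRNAs of sensory and neuroendocrine epithelia formed the next group, with 3 of 4 members higher, none lower and a median of 1.35, against 30.1% higher and 39.2% lower over all miRNAs. miR-375-1-3p, which is highest in pancreatic islets and neuroendocrine cells of mammals, had 14206 reads at 6 dpa and 1654 at 3 dpa, with a change of 2.96 (2.89 to 3.03). The miR-183 cluster, which acts in hair cells and sensory neurons in mice, was higher by less. miR-183-5p had 6521 reads at 6 dpa and 1819 at 3 dpa, or 1.70 (1.62 to 1.77). For miR-182-5p there were 8764 reads at 6 dpa and 3982 at 3 dpa, or 0.99 (0.94 to 1.05), which fell within the cut-off with the upper quartile. miR-96-5p lay within the cut-off at 0.58 (0.37 to 0.79), with 486 reads at 6 dpa and 295 at 3 dpa.

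**Figure D3:**
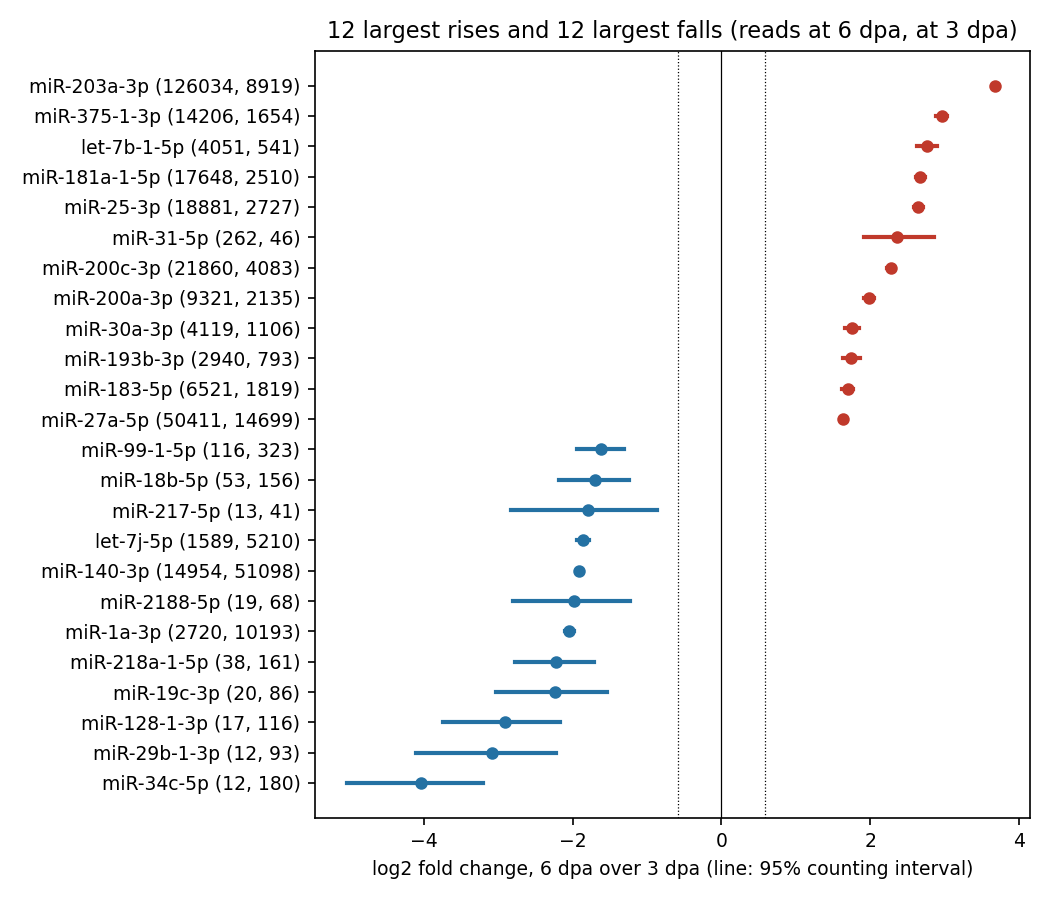
Points give the log2 fold change of 6 dpa over 3 dpa and lines the exact 95% counting interval, for the 12 largest increases and 12 largest decreases among the 128 miRNAs that have 10 reads or more at each of the 2 stages; the reads at 6 dpa and at 3 dpa stand in parentheses and dotted lines mark the cut-off. The increases ran from 1.63 for miR-27a-5p to 3.68 for miR-203a-3p, and the decreases from -1.62 for miR-99-1-5p to -4.04 for miR-34c-5p.

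Among miRNAs of muscle, none of 7 was higher, 4 were lower and 3 lay within the cut-off, with a median of -0.60, against 30.1% higher and 39.2% lower over all miRNAs. The members with 1 seed (GGAATGT) parted. Of the tags of miR-1, a miRNA of differentiated heart and skeletal muscle, miR-1a-3p had 2720 reads at 6 dpa and 10193 at 3 dpa. Its change was -2.05 (-2.11 to -1.99), or 4.14-fold lower. The miR-1b tag differs from it at the 3′ end only (T22C, with the base of miR-1b before the position) and had 18345 reads at 6 dpa and 17741 at 3 dpa, or -0.10 (-0.12 to -0.07). The reads of miR-1a-3p were 14.8% of those of miR-1b at 6 dpa and 57.5% at 3 dpa. Whether the miR-1a-3p and miR-1b tags have separate origins was not tested, so the decrease is that of 1 tag and not of miR-1 as a whole. miR-206, which is specific to skeletal muscle, had 9487 reads at 6 dpa and 11537 at 3 dpa, or -0.43 (-0.46 to -0.39), which passed the cut-off with total reads and with the upper quartile, and miR-1d-3p stood at -0.60 (-0.71 to -0.50), a call sensitive to scaling. Over these 4 members the reads summed to 31760 at 6 dpa and 41134 at 3 dpa, with a change of -0.52 (-0.54 to -0.50).

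Of the muscle miRNAs with other seeds, 2 were lower. miR-133a-1-3p, which acts with miR-1 in the differentiation of muscle and is shared by skeletal and heart muscle, had 625 reads at 6 dpa and 1666 at 3 dpa, with a change of -1.56 (-1.69 to -1.42). miR-499-5p, encoded in a myosin heavy chain gene of slow muscle in mammals, had 44 reads at 6 dpa and 97 at 3 dpa, or -1.28 (-1.83 to -0.76). miR-208b-3p, of another myosin gene, had 11 reads at 6 dpa and 9 at 3 dpa, or 0.14 (-1.26 to 1.60). Over 0, 3, 6 and 14 dpa the level of miR-133a-1-3p was 19797, 1729, 587 and 105 cpm. For miR-1b the levels were 21954, 18412, 17239 and 2547 cpm at those stages.

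In cartilage and connective tissue the changes were downward or small. miR-140-3p, the miRNA of chondrocytes whose loss in mice shortens the skeleton, had 14954 reads at 6 dpa and 51098 at 3 dpa, with a change of -1.92 (-1.94 to -1.89), or 3.77-fold lower. The other cartilage miRNA on the list, miR-455-1-5p, had 181 reads at 6 dpa and 149 at 3 dpa, or 0.14 (-0.18 to 0.46). Over 0, 3, 6 and 14 dpa miR-140-3p was at 180636, 53031, 14052 and 8091 cpm and miR-455-1-5p at 464, 155, 170 and 145 cpm. miR-199-1-3p, whose tag the sequence file also calls miR-199c-5p, is transcribed with miR-214 in the mesenchyme of vertebrate embryos. It had 1278 reads at 6 dpa and 2390 at 3 dpa, or -1.05 (-1.15 to -0.95). miR-214-3p had 71 reads at 6 dpa and 62 at 3 dpa and stood at 0.05 (-0.46 to 0.57).

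Of the 3 smooth muscle and vessel miRNAs, 2 were lower, against 39.2% over all miRNAs, and none was higher. miR-143-1-3p, of smooth muscle, had 17209 reads at 6 dpa and 25045 at 3 dpa, or -0.68 (-0.71 to -0.66), a call sensitive to scaling. miR-145-5p, made from the same transcript as miR-143 in mammals, had 106 reads at 6 dpa and 277 at 3 dpa and was lower by more, at -1.53 (-1.87 to -1.20). The tag named miR-126a-5p, which the sequence file also calls miR-126, has the sequence of the 3p strand of miR-126, a miRNA of endothelium. It had 2354 reads at 6 dpa and 2340 at 3 dpa and stood at -0.13 (-0.22 to -0.05).

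Most blood cell miRNAs stood above the uninjured limb at both stages. Of the 6 leukocyte miRNAs 1 was lower, 3 lay within the cut-off and 2 were higher, of which miR-146b-5p had 1 read at 6 dpa and 0 at 3 dpa. Their median was -0.12, and 0.06 with the median of ratios and 0.08 with the 3 dpa TMM reference. miR-223-3p, of neutrophils and macrophages, had 2287 reads at 6 dpa and 2742 at 3 dpa, or -0.41 (-0.49 to -0.32), and over 0, 3, 6 and 14 dpa its level was 218, 2846, 2149 and 420 cpm. The tag named miR-142a-5p, which the sequence file also calls miR-142-3p, is found in all leukocytes. It had 2376 reads at 6 dpa and 2086 at 3 dpa, or 0.04 (-0.04 to 0.13). miR-155-5p, of activated lymphocytes and macrophages, stood at -0.28 (-0.47 to -0.10), with 449 reads at 6 dpa and 495 at 3 dpa. These 3 myeloid and general leukocyte miRNAs lay within the cut-off under TMM scaling. miR-150-5p, of mature lymphocytes, was lower, with 47 reads at 6 dpa and 124 at 3 dpa, or -1.54 (-2.06 to -1.05). miR-146a-5p, which in mammals dampens NF-κB signaling and is not confined to blood cells, was higher, with 6539 reads at 6 dpa and 2855 at 3 dpa, or 1.05 (0.99 to 1.12), and fell within the cut-off with the upper quartile. Of the red cell miRNAs, which are made from 1 cluster, miR-144-5p had 168 reads at 6 dpa and 286 at 3 dpa, or -0.91 (-1.19 to -0.63). miR-451-5p had 144 reads at 6 dpa and 138 at 3 dpa, or -0.08 (-0.43 to 0.27), and was at 2.22 cpm in the uninjured limb.

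**Figure D4:**
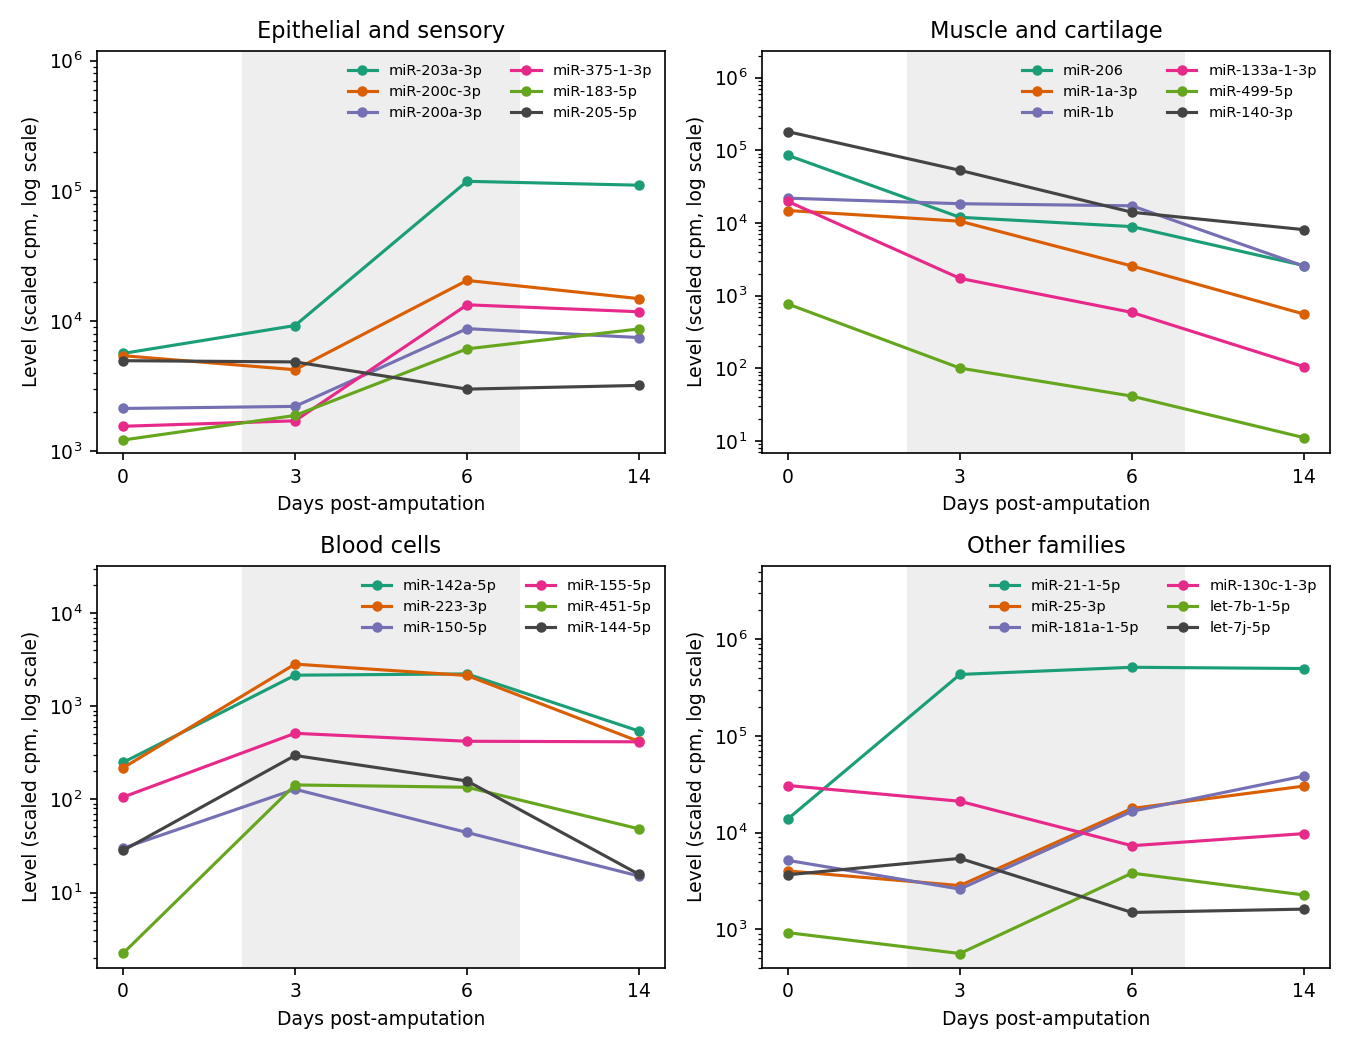
Lines join the levels in scaled cpm, on a log axis, at 0, 3, 6 and 14 dpa, with 1 library per stage and the 3 and 6 dpa stages shaded; the 4 panels show epithelial and sensory, muscle and cartilage, blood cell and other miRNAs. miR-203a-3p stood at 118435 cpm at 6 dpa and 9256 cpm at 3 dpa, miR-140-3p at 14052 cpm at 6 dpa and 53031 cpm at 3 dpa, and miR-21-1-5p at 511557 cpm at 6 dpa and 431344 cpm at 3 dpa.

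Of the 8 miRNAs known from nervous tissue, 6 were lower and 2 higher, with a median of -1.20, against 39.2% lower over all miRNAs. The whole interval lay below the cut-off for 3 of the 8, against 30.1% over all. Both counts include miR-218a-1-5p and miR-218b-5p, a tag and its shorter version, which may not be independent. All 8 miRNAs were rare, and together they were 307 reads at 6 dpa and 517 at 3 dpa. The lowest was miR-128-1-3p, which is abundant in the brain of mammals, with 17 reads at 6 dpa and 116 at 3 dpa, with a change of -2.91 (-3.74 to -2.17). miR-218a-1-5p, a miRNA of motor neurons in mice that is made from Slit genes, had 38 reads at 6 dpa and 161 at 3 dpa, or -2.22 (-2.78 to -1.71). The miR-218b-5p tag is 1 base shorter at the 3′ end and had 38 reads at 6 dpa and 98 at 3 dpa, or -1.51 (-2.09 to -0.96). miR-137 stood at -1.34 (-2.58 to -0.22) on 10 reads at 6 dpa and 23 at 3 dpa, and miR-132-1-3p at -0.95 (-1.94 to -0.01) on 16 reads at 6 dpa and 28 at 3 dpa. On the other side were miR-138-5p, at 0.93 (0.50 to 1.38) with 137 reads at 6 dpa and 65 at 3 dpa, and miR-9-1-5p, at 0.91 (0.19 to 1.68) with 50 reads at 6 dpa and 24 at 3 dpa. Both calls were sensitive to scaling. miR-124-4-3p, the defining miRNA of neurons, had 1 read at 6 dpa and 2 at 3 dpa, and so was not detectable above 3 reads at either stage. It is counted among the 6 lower miRNAs by its fitted value alone.

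The miR-17-92 cluster and its paralogs, which promote proliferation in mammals, had members on both sides. Their reads summed to 62061 at 6 dpa and 30487 at 3 dpa, a change of 0.88 (0.86 to 0.90) under TMM scaling. No value of this sum is given here under the alternatives. Of 14 members 5 were higher (30.1% over all miRNAs), 4 lower (39.2% over all) and 5 within the cut-off, with a median of 0.24 that became -0.10 with total reads and -0.23 with the upper quartile. The members with the seed ATTGCAC differed the most. miR-25-3p had 18881 reads at 6 dpa and 2727 at 3 dpa, with a change of 2.65 (2.59 to 2.71). miR-92a-1-3p had 3793 reads at 6 dpa and 1250 at 3 dpa, or 1.46 (1.37 to 1.55). miR-363-3p, with the same seed, was lower, with 407 reads at 6 dpa and 781 at 3 dpa, or -1.08 (-1.26 to -0.91). The reads of the 3 tags summed to 23081 at 6 dpa and 4758 at 3 dpa, with a change of 2.14 (2.09 to 2.18), so the sum followed miR-25-3p.

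Members with the miR-17 seed (AAAGTGC) were led by miR-93-5p, which had 31317 reads at 6 dpa and 19383 at 3 dpa and stood at 0.55 (0.52 to 0.57). miR-20a-2-5p was at 0.998 (0.85 to 1.15) and fell within the cut-off with the upper quartile. Relatives with the same seed were miR-20b-5p at -0.17 (-0.25 to -0.09) and miR-17a-1-5p at -0.27 (-0.42 to -0.12). miR-106a-5p, at 12 reads at 6 dpa and 33 at 3 dpa, was at -1.59 (-2.69 to -0.61). miR-106b-5p was at 0.59 (-0.51 to 1.76) on 20 reads at 6 dpa and 12 at 3 dpa, a call sensitive to scaling and to the prior count. The 6 tags summed to 0.48 (0.45 to 0.50), within the cut-off under TMM scaling. No value of this sum is given here under the alternatives, where miR-93-5p alone reached up to 0.75. miR-18b-5p, with a seed of its own, had 53 reads at 6 dpa and 156 at 3 dpa, or -1.70 (-2.18 to -1.24). In the miR-19 family, miR-19b-3p had 1346 reads at 6 dpa and 800 at 3 dpa, or 0.61 (0.48 to 0.74), a call sensitive to scaling. Its relatives miR-19d-3p and miR-19a-2-3p were at 0.19 and 0.29. The tag miR-19c-3p is miR-19b-3p without its last 2 bases, and had 20 reads at 6 dpa and 86 at 3 dpa, or -2.24 (-3.03 to -1.53).

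The miR-181 family is known for its part in lymphocyte development in mice and is expressed in many tissues. It had 3 of 3 tags higher, against 30.1% over all miRNAs. The miR-181b-1-5p tag is miR-181c-5p without its last 3 bases, so these tags are length forms of 1 sequence. miR-181a-1-5p had 17648 reads at 6 dpa and 2510 at 3 dpa, with a change of 2.67 (2.61 to 2.73), or 6.37-fold. For miR-181c-5p the reads were 1342 at 6 dpa and 422 at 3 dpa, or 1.53 (1.37 to 1.69), and for miR-181b-1-5p 2250 at 6 dpa and 1133 at 3 dpa, or 0.85 (0.74 to 0.95), a call sensitive to scaling. The shared seed ACATTCA summed to 21240 reads at 6 dpa and 4065 at 3 dpa, with a change of 2.24 (2.19 to 2.29). Over 0, 3, 6 and 14 dpa miR-181a-1-5p was at 5155, 2605, 16584 and 38406 cpm, so it was below the uninjured limb at 3 dpa and above it from 6 dpa on.

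Of the 5 members of miR-23, miR-24 and miR-27, which in vertebrates lie together in clusters, 3 were higher and 1 lower, against 30.1% and 39.2% over all miRNAs. miR-27a-5p, from the strand opposite the usual miR-27 product, was the fourth most abundant tag at 6 dpa, with 50411 reads, against 14699 at 3 dpa, with a change of 1.63 (1.61 to 1.66). The miR-27d-3p tag is miR-27b-3p without its last base, and the pair share the seed TCACAGT. miR-27d-3p was at 1.62 (1.53 to 1.70), with 5278 reads at 6 dpa and 1560 at 3 dpa, and miR-27b-3p at 0.59 (0.52 to 0.66), with 4585 reads at 6 dpa and 2754 at 3 dpa, a call sensitive to scaling. miR-23a-1-3p stood at 0.13 (0.05 to 0.21). miR-24-1-3p was lower, with 2204 reads at 6 dpa and 3678 at 3 dpa, or -0.88 (-0.96 to -0.81).

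The let-7 family, which restrains proliferation and marks differentiated cells from Caenorhabditis elegans to mammals, had 4 of 9 tags lower, close to the 39.2% over all miRNAs, and 1 higher, with a median of -0.46. The 8 tags with the let-7 seed GAGGTAG summed to 50418 reads at 6 dpa and 63769 at 3 dpa, with a change of -0.48 (-0.50 to -0.47). let-7f-5p had 17244 reads at 6 dpa and 25449 at 3 dpa, or -0.70 (-0.73 to -0.68), and let-7c-1-5p was at -0.66 (-0.77 to -0.55), both sensitive to scaling. let-7j-5p was lower by more, with 1589 reads at 6 dpa and 5210 at 3 dpa, or -1.86 (-1.94 to -1.78). let-7b-1-5p went against the others, with 4051 reads at 6 dpa and 541 at 3 dpa, with a change of 2.76 (2.63 to 2.89). Its deposited tag is short, at 20 bases, and whether longer tags of let-7b changed alike was not tested. let-7g-1-5p was at -0.26 and let-7e-1-5p at 0.22. The opposite strand let-7i-3p, with another seed, had 3 reads at 6 dpa and 27 at 3 dpa, or -3.27 (-5.68 to -1.61).

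Several families moved downward together, where 39.2% of all miRNAs were lower. All 4 tags of miR-15 and miR-16, which slow the cell cycle in mammals, were lower, from -0.65 for miR-16b-5p to -1.16 for miR-15b-5p, and their seed AGCAGCA summed to 1967 reads at 6 dpa and 3019 at 3 dpa, or -0.76 (-0.84 to -0.68). The calls of miR-16b-5p and miR-15a-1-5p were sensitive to scaling. All 3 tags of miR-29, which represses collagens and other matrix genes in mammals, were lower. miR-29b-1-3p had 12 reads at 6 dpa and 93 at 3 dpa, with a change of -3.09 (-4.10 to -2.22), and miR-29a-3p had 155 at 6 dpa and 327 at 3 dpa, or -1.22 (-1.51 to -0.94). miR-29d-5p, from the opposite strand, was at -0.69 (-1.11 to -0.27), a call sensitive to scaling. Of the tags of miR-130, miR-301 and miR-454, 5 of 6 were lower and the last was within the cut-off. The most abundant of them, miR-130c-1-3p, had 7780 reads at 6 dpa and 20298 at 3 dpa, with a change of -1.53 (-1.56 to -1.49). The call of miR-130b-5p, at -0.73, was sensitive to scaling. The seed AGTGCAA summed to -1.47 (-1.50 to -1.43). The whole interval lay below the cut-off for 2 of the 4 tags of miR-15 and miR-16 and 2 of the 3 of miR-29. For miR-130, miR-301 and miR-454 it did so in 4 of the 6 tags, against 30.1% over all miRNAs. These 3 families are described together because of their direction, so their joint count is no result.

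miR-34, which p53 induces in mammals, had its 2 tags on opposite sides. miR-34c-5p had 12 reads at 6 dpa and 180 at 3 dpa, with a change of -4.04 (-5.03 to -3.21), or 16.4-fold lower, and was at 22.2 cpm at 0 dpa and 13.7 cpm at 14 dpa. It was thus high at 3 dpa alone among the 4 libraries. miR-34a-5p had 383 reads at 6 dpa and 221 at 3 dpa, or 0.65 (0.41 to 0.90), a call sensitive to scaling. Their seed summed to 395 reads at 6 dpa and 401 at 3 dpa, or -0.17 (-0.37 to 0.04), so the sum did not show the change of either.

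miR-221 and miR-222, which repress the cell cycle inhibitor p27 in mammals, also parted. miR-221-1-3p had 1421 reads at 6 dpa and 623 at 3 dpa, or 1.05 (0.91 to 1.18), and fell just within the cut-off with the upper quartile. miR-222b-3p is miR-222a-3p without its last 3 bases. It had 206 reads at 6 dpa and 74 at 3 dpa, or 1.33 (0.94 to 1.74), while miR-222a-3p had 78 at 6 dpa and 160 at 3 dpa, or -1.18 (-1.59 to -0.78). The short tag was 72.5% of the reads of the pair at 6 dpa and 31.6% at 3 dpa.

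The shift between a tag and its shorter version was not limited to miR-222. In 9 pairs of names, 1 tag lies wholly within the other, and in 8 of these both start at the same base and share the seed. The change of the 2 tags differed by more than 0.58 in 8 of the 9 pairs, in both directions. The short tag gained in miR-27d-3p (53.5% of the pair at 6 dpa and 36.2% at 3 dpa) and in miR-454a-3p (72.4% at 6 dpa and 52.7% at 3 dpa). It lost in miR-26b-5p (51.5% of the pair at 6 dpa and 69.1% at 3 dpa), in miR-181b-1-5p (62.6% at 6 dpa and 72.9% at 3 dpa) and in miR-19c-3p (1.46% at 6 dpa and 9.71% at 3 dpa). For such names a value says how much of 1 form was read, and not how much of the miRNA there was. Over all seeds, 97 were found among the 143 tags and 22 were shared by more than 1 tag, which together hold 68 tags. In 7 of the 22 shared seeds at least 1 tag was higher and at least 1 lower. Among these, the lower miR-19c-3p is a shorter form of the higher miR-19b-3p, and the higher miR-222b-3p of the lower miR-222a-3p. The calls of miR-19b-3p, miR-34a-5p and miR-30d-5p, each the only higher tag of its seed, were sensitive to scaling. So were those of miR-20a-2-5p and miR-106b-5p, the higher tags with the miR-17 seed. In 4 of the 22 every tag was higher: miR-181, miR-200c with miR-429a, miR-27b with miR-27d, and miR-146a with miR-146b. Of these, miR-146b-5p had 1 read at 6 dpa and 0 at 3 dpa. In 3 every tag was lower: miR-15 with miR-16, miR-29a with miR-29b, and miR-218. Over all 143 tags 30.1% were higher and 39.2% lower. The tags of miR-27b with miR-27d, of miR-218, and of miR-181c with miR-181b are each a tag and its shorter version. In the seeds with every tag higher or every tag lower, the calls of miR-27b-3p, miR-181b-1-5p, miR-146a-5p, miR-16b-5p and miR-15a-1-5p were sensitive to scaling.

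miRNAs of the Hox clusters, which lie among the genes that pattern the limb axes, were higher or within the cut-off. miR-10a-5p had 3773 reads at 6 dpa and 1177 at 3 dpa, with a change of 1.54 (1.44 to 1.63), while miR-10b-1-5p, with the same seed, was at 0.24 (0.21 to 0.28) on 13717 reads at 6 dpa and 10498 at 3 dpa. miR-196d-5p had 1186 reads at 6 dpa and 681 at 3 dpa, or 0.66 (0.52 to 0.80), a call sensitive to scaling, and its shorter form miR-196a-1-5p was at 0.40 (-0.03 to 0.84). The level of miR-196d-5p over 0, 3, 6 and 14 dpa was 549, 707, 1114 and 8323 cpm, so most of its increase lay after 6 dpa.

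In the remaining families the members had no common direction. Of miR-30, miR-30d-5p was at 0.81 (0.77 to 0.84), a call sensitive to scaling, the opposite strand miR-30a-3p was at 1.75 (1.66 to 1.85) with 4119 reads at 6 dpa and 1106 at 3 dpa, and miR-30c-5p was at -0.94 (-1.02 to -0.86). The median of its 5 tags was 0.47, and -0.004 with the upper quartile. Of miR-99, miR-100 and miR-125, which share clusters with let-7, miR-99-1-5p was at -1.62 (-1.94 to -1.31) and miR-125a-2-5p at -1.25 (-1.55 to -0.95). miR-100-1-5p, with the seed of miR-99-1-5p, had 5990 reads at 6 dpa and 4526 at 3 dpa and stood at 0.26 (0.21 to 0.32). Of miR-26 and miR-101, miR-26b-5p was at -1.10 (-1.15 to -1.04) and miR-26a-1-5p, of which it is a shorter form, at -0.02 (-0.09 to 0.04). miR-148-3p had 99102 reads at 6 dpa and 71944 at 3 dpa, or 0.32 (0.30 to 0.33). Its relative miR-152-3p had 1 read at 6 dpa and 0 at 3 dpa, against 571 at 0 dpa and 71 at 14 dpa.

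**Figure D5:**
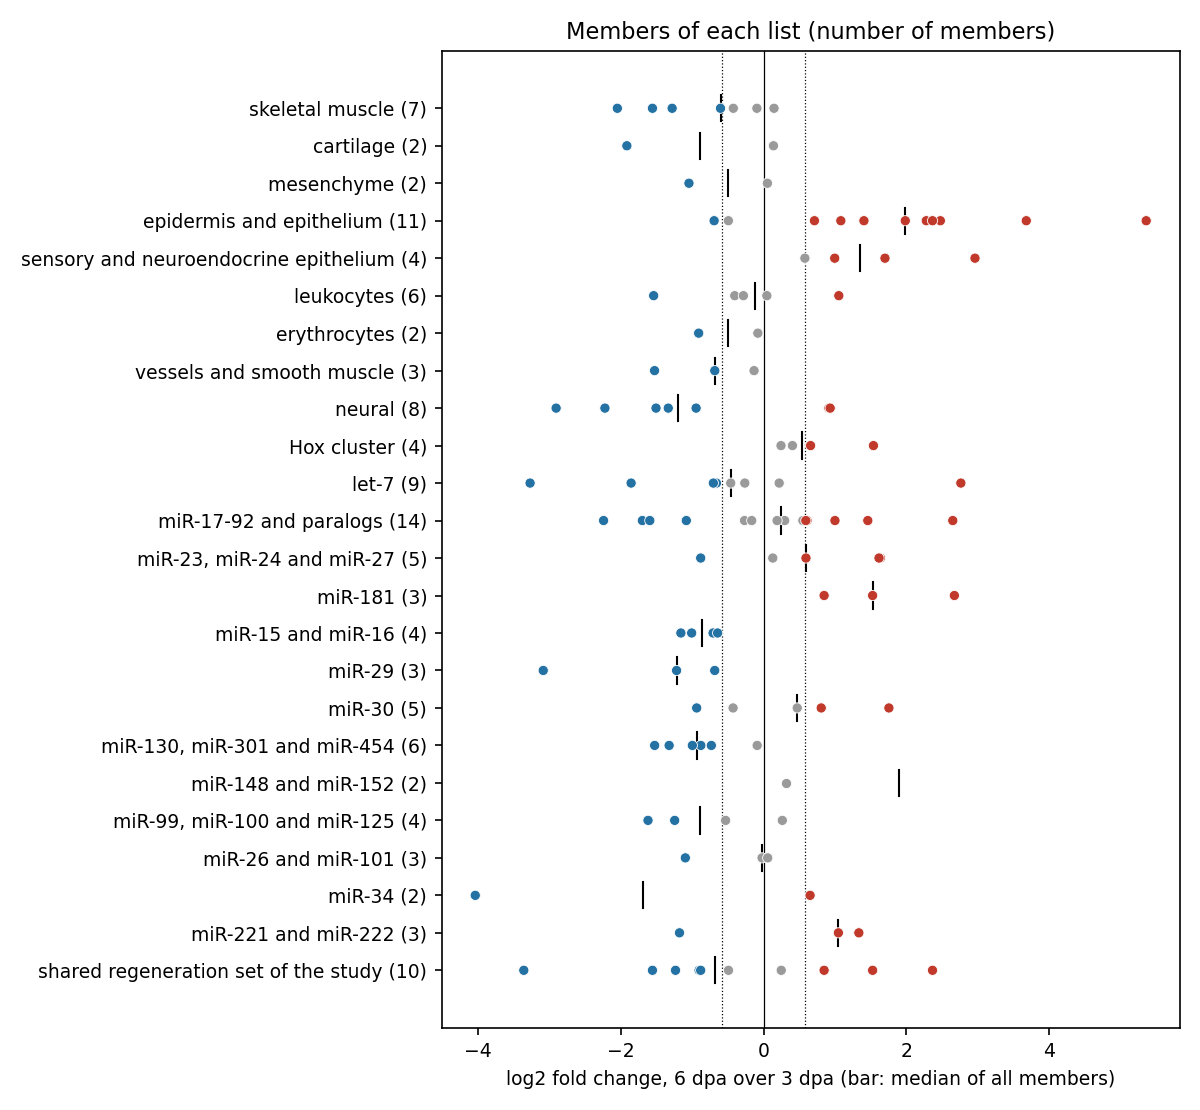
Each point is the log2 fold change of 6 dpa over 3 dpa of 1 miRNA, by list, without the 5 miRNAs at or under 3 reads in both libraries; short bars mark the median over all members, those 5 included, and dotted lines the cut-off. The epithelial list has its median at 1.98 and the miR-181 family at 1.53, against -1.20 for neural miRNAs and -0.94 for miR-130, miR-301 and miR-454.

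A set of 10 miRNAs was picked by the study across zebrafish, bichir and axolotl appendages, for the axolotl on the contrast of 6 dpa with 0 dpa. That contrast uses the 6 dpa library examined here, so the directions below are not independent of the choice. At 6 dpa against 3 dpa, 3 of them were higher (miR-181c-5p, miR-31-5p and, sensitive to scaling, miR-181b-1-5p) and 5 lower, with a median of -0.69, against 30.1% higher and 39.2% lower over all miRNAs. miR-2184-1-5p, for which no function is given here, had 4 reads at 6 dpa and 38 at 3 dpa, with a change of -3.36 (-5.34 to -1.92). miR-204-2-5p had 91 reads at 6 dpa and 194 at 3 dpa, or -1.23 (-1.61 to -0.87). miR-7b-5p was at -0.90 (-1.18 to -0.63), and over 0, 3, 6 and 14 dpa at 37.7, 311, 166 and 200 cpm. In these single libraries it was thus lower at 6 dpa than at 3 dpa while above its uninjured level at both. By sequencing of the axolotl at 6 dpa against 0 dpa, the paper lists miR-181b and miR-7b as raised, at log2 fold changes of 1.64 and 2.14. By real-time PCR against 0 dpa it found both raised in zebrafish and bichir. For the regenerating axolotl forelimb, however, its discussion describes miR-181b and miR-7 as significantly downregulated. None of these statements is about 6 dpa against 3 dpa. miR-338-1-3p was at -0.49 (-1.13 to 0.13), and miR-21-1-5p, miR-24-1-3p and miR-133a-1-3p are given above.

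Some of the largest decreases were of rare miRNAs. miR-328-5p had 0 reads at 6 dpa and 108 at 3 dpa, and 6 at 0 dpa and 0 at 14 dpa. With its 0 reads at 6 dpa set to the limit of 3, it was 39.8-fold lower at 6 dpa. The counting interval of its log2 fold change lay wholly below -4.99. miR-281 had 3 reads at 6 dpa and 42 at 3 dpa, or -3.91 (-6.29 to -2.30). miR-2188-5p was at 19 reads at 6 dpa and 68 at 3 dpa, or -1.98 (-2.80 to -1.23), and miR-217-5p at 13 at 6 dpa and 41 at 3 dpa, or -1.79 (-2.82 to -0.87). Among the largest increases outside the lists was miR-193b-3p, with 2940 reads at 6 dpa and 793 at 3 dpa, or 1.75 (1.63 to 1.86).

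What the higher and lower miRNAs shared in sequence was little. The median length was 22 bases in both groups. The median share of G and C was 45.8% in the higher and 42.6% in the lower miRNAs, and 45.0% over all. A T at the first base was found in 51.2% of the higher and 67.9% of the lower miRNAs, and in 63.6% of all. Across the 128 miRNAs that reached 10 reads at each of the 2 stages, Spearman's rho of the log2 fold change was 0.15 with the share of G and C, -0.06 with length and 0.33 with the mean level in the 2 libraries. These are descriptions across miRNAs, which share the same 2 libraries and are not independent.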

How the data were processed

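Small RNA was sequenced from limb tissue at 0, 3, 6 and 14 dpa, with 1 library per stage. For the axolotl libraries the authors clipped and trimmed the reads, collapsed them into tags and annotated tags of 20 to 25 nt with miRMiner against miRBase version 21; other versions are not given in the sources used here. The deposited log2 values are whole numbers of reads on a log scale, although named as log2 cpm. Raising 2 to each value gave whole reads within a relative deviation of 3.46e-09. Spreadsheet error marks stood in 7 cells, 3 of them at 3 dpa, and were read as 0 reads. Of the 143 mature sequences in the study's sequence file, 68 also appear in its table of tags, and all 68 have the deposited reads in all 4 libraries; the other 75 could not be compared in this way. On this basis every row was read as 1 exact tag, and the total of these rows is not the depth of the library. The columns of all 4 small RNA libraries were used, those of 0 and 14 dpa for scaling and for levels, and the mRNA table was not used here.

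Reads were scaled by TMM, coded in Python (3.11.15) using NumPy (2.4.6), SciPy (1.17.1) and pandas (2.3.3), with the 0 dpa library as reference and 30% of log ratios and 5% of levels trimmed at each end. The TMM factors were 0.843 at 6 dpa and 1.07 at 3 dpa. A prior count of 0.125, scaled to library size, was added before log2 ratios were taken, without a filter on low reads. The reference library and the prior count were taken over from an earlier analysis of these data. Scaling and intervals were tested on simulated reads in which fewer miRNAs changed than here, as many upward as downward. The intervals were checked there with the true scaling. That test therefore cannot show whether the scaling suits these data. Since every stage is 1 pooled library, replicate error is unknown and no test was made. Figures were drawn with matplotlib 3.10.9.

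Named miRNAs are the 12 largest increases and 12 largest decreases above a minimum of 10 reads at each stage, the 10 most abundant at each stage, those with 3 reads or fewer in 1 library that are past 1 on the log2 scale at a floor of 3 reads, and all members of 24 lists. The miRNAs and lists, drawn from general knowledge and the study, were chosen with earlier results of these data known. The alternatives were other scalings, prior counts, a filter, a stricter cut-off and nested names summed.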

Additional observations from a re-analysis of the deposited data

How the results depend on the processing

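The median log2 fold change of all miRNAs was -0.13 and moved beyond the counting interval of the miRNA nearest to it among those with at least 10 reads at each stage, miR-126a-5p (-0.22 to -0.05), under 7 alternatives. It was -0.47 with total miRNA reads, -0.60 with the upper quartile, 0.046 under median-of-ratios scaling, 0.067 when TMM took 3 dpa as its reference and 0.067 with TMM of the 2 libraries alone, -0.22 with at least 10 reads in every library, and -0.24 with nested names summed. The interval of miR-126a-5p covers the counting error of 1 miRNA and does not measure the spread of a median. The filter of 10 reads and the summed names also changed the number of miRNAs, to 126 and 134. The number higher was 43, against 26 with the upper quartile and 28 at a cut-off of 1. The number with the whole interval above the cut-off was 27, against 17 with the upper quartile and 17 at a cut-off of 1. The number with the whole interval below its negative was 43, against 21 at a cut-off of 1. The other counts stayed within 1.5 times, and no named miRNA past the cut-off changed sign under an alternative. Leaving miR-21 out of the normalization or taking prior counts of 0.5 and 1 moved no count by more than 1. No paired analysis was possible because each stage has 1 library.

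The spread between limbs is unknown with 1 library per stage. At this depth 9 miRNAs at 6 dpa and 6 at 3 dpa had 3 reads or fewer.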
